A study of Mus musculus with 10 samples.

Results

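The proteasome genes described here are the autosomal protein-coding genes of the GENCODE annotation of mm10 whose symbols begin with Psma, Psmb, Psmc, Psmd, Psme, Psmf or Psmg. The rule selected 49 of 20720 autosomal protein-coding genes with an annotated transcription start site (TSS). Microglia are macrophages that reside in the brain, and they were sorted here as CD45+ CD11b+ CX3CR1+ cells from wild-type mice of the strain C57/Bl6, and the study's methods set the CD45 gate to low and used males 8 to 12 weeks old. H3K4me3, a histone mark of active promoters, was profiled by ChIP-seq in 2 libraries, each deposited as a peak list called against input DNA. Contacts of marked promoters were profiled by H3K4me3 PLAC-seq, a proximity ligation assay, in 2 libraries, which the authors merged before calling 26689 interactions at a bin size of 5 kb. Hi-C was made from 4 further samples, 2 wild-type and 2 with the Sall1 enhancer knocked out, and is not used here. The values therefore describe a single genotype.

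The proteasome degrades ubiquitinated proteins inside a barrel, the 20S core, built of rings of alpha (Psma) and beta (Psmb) subunits. Psmb5, Psmb6 and Psmb7 encode the constitutive catalytic beta subunits, and the interferon-inducible Psmb8, Psmb9 and Psmb10 take their places in the immunoproteasome, which favours peptides suited to presentation on MHC class I. The 19S cap, built of ATPases (Psmc) and non-ATPase subunits (Psmd), recognizes and unfolds substrates, whereas the activators Psme1 to Psme4 open the core without ATP-driven unfolding. Psmf1 encodes the inhibitor PI31, and Psmg1 to Psmg4, Psmd5 and Psmd9 encode assembly chaperones. Immunoproteasome subunits are prominent in cells of the immune system.

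Depth was similar in the ChIP-seq libraries, with 12.8 M tags and 27845 peaks in replicate 1 and 13.4 M tags and 26574 peaks in replicate 2. H3K4me3 was present at 10 of 10 microglia marker genes in both replicates, with a median of 216 tags per 10 M. Of the markers of other cells, 2 of 5 for neurons, 2 of 4 for astrocytes, 1 of 4 for oligodendrocytes, 2 of 3 for endothelium and 1 of 7 for other myeloid and lymphoid cells carried it. Among these Mbp alone was tall, at 187 tags per 10 M, and the others lay between 8.36 and 57.7. The defining neuronal gene Rbfox3 and the astrocyte genes Gfap and Aqp4 did not carry it in both replicates, whereas Snap25 and Slc17a7 of the neuronal and Slc1a2 and Aldh1l1 of the astrocyte list did. Whether other cells contributed to the proteasome values was not tested.

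Of the promoter letters searched, those of ETS factors were shared by the most members relative to other marked genes. RefSeq promoter windows (GRCm38.p6, 250 bases before to 50 after a start) matched 41 of the 49 members and 15691 autosomal genes. Psma8, Psmb1, Psmb2, Psmb7, Psmc3, Psmd3, Psmd7 and Psmg2 had no matched window. The letters ACTTCCG, bound by ETS factors, were found on either strand in 14 of the 39 windows of members with H3K4me3 (35.9%) and in 14.2% of the 9638 windows of all genes with H3K4me3 (9.26% of all windows). The 17 matches in members began between -115 and 16 bases from the start, 12 of them within 60 bases of it. The share within 60 bases was not computed for matches of all genes, so no excess near the start is read from this. As examples, some of the matches near the start are printed with 10 bases on each side, 5′ to 3′ on the strand of the gene. Capitals mark the letters.
Psmc4, first capital 11 bases after the start, chr7:28050065-28050091: tatgtgaaggACTTCCGttggcgtcag
Psmb4, 5 bases before the start, chr3:94886947-94886973: gcaaaggaccACTTCCGtttccggtga
Psmd8, 17 bases before, chr7:29180674-29180700: gagcgaacggACTTCCGttcgccattt
Psme3, 1 base after, chr11:101316204-101316230: ctgtgacgcaACTTCCGgcgtgagcgg
Psmg3, 5 bases after, chr5:139826873-139826899: ggacaggaacCGGAAGTtctcgccggg

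The core of the antioxidant response element, TGACNNNGC, through which NFE2L1 induces proteasome genes, was found in 6 windows, or 15.4% of members with H3K4me3 against 14.9% of all marked genes and 13.4% of all windows. Among its matches were the constitutive catalytic genes Psmb5 and Psmb6, shown in the same way.
Psmb5, 47 bases before the start, chr14:54618024-54618052: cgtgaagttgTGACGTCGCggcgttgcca
Psmb6, 9 bases before, chr11:70525338-70525366: ctaaagagagTGACGGAGCgctttacgac
The interferon-stimulated response element, GAAANNGAA, was found in 6 windows (15.4% against 6.78%, and 8.20% of all windows), those of Psmb3, Psmb4, Psmd4, Psmd9, Psmg4 and the interferon-inducible Psme1, and in Psmb4 they overlapped the ETS letters. None of the windows of Psmb8, Psmb9 and Psmb10 held these letters. The windows of Psmb8 and Psmb9 were placed on RefSeq starts 405 and 434 bp downstream of the GENCODE TSS and leave that TSS out. Letters around those GENCODE TSSs were not searched. The STAT site TTCNNNGAA was found in 3 windows (7.69% against 6.43%, and 7.76% of all windows), among them Psmb8.
Psme1, interferon-stimulated response element, 10 bases after the start, chr14:55578494-55578522: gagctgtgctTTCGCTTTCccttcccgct
Psmb8, STAT site, 97 bases before the start, chr17:34198088-34198116: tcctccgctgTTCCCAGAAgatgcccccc
Shares for the other letters were 17.9% against 14.3% for GCGCANGCG (NRF1), 30.8% against 38.1% for CCAAT (NFY) and 56.4% against 68.0% for GGGCGG (SP1), as the plot of motif shares shows. Over all windows these shares were 9.34%, 38.3% and 49.1%. A match describes letters and not binding, and the absence of one says only that these letters are not in the window.

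**Figure D1:**
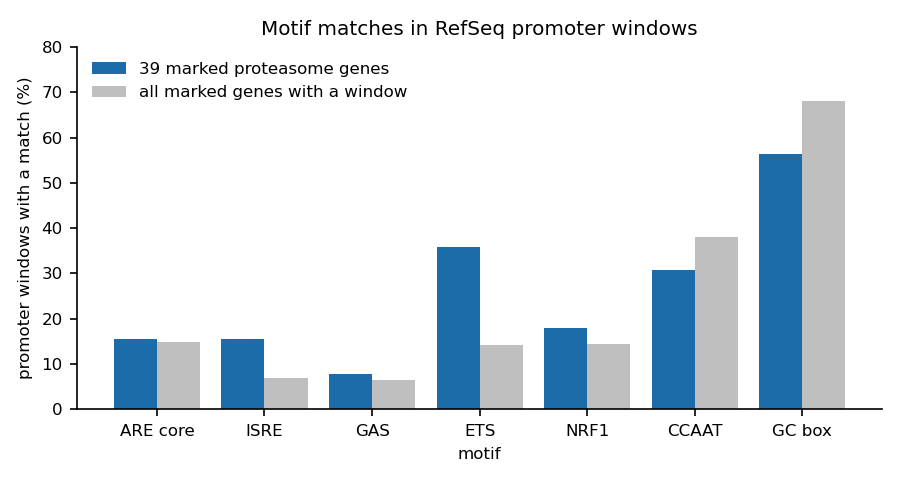
Share of RefSeq promoter windows (%, y axis) with at least 1 match to each motif (x axis) for 39 proteasome genes with H3K4me3 in both replicates (blue) and for all marked autosomal genes with a window (grey). ETS letters were in 35.9% of the proteasome windows and in 14.2% of the others shown, whereas the antioxidant element core was at 15.4% and 14.9%.

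The observed over expected CpG ratio was lower in the RefSeq windows of the immunoproteasome genes than in those of the constitutive catalytic genes with a window. However, the window of Psmb9 held 17 CG dinucleotides and that of Psmb6 held 15. This ratio had a median of 0.78 over windows of marked members and 0.79 over all marked genes, and it was above 0.6 in 76.9% and 76.8% of them. It was 1.00 for Psmb5 and 0.73 for Psmb6, but 0.52 for Psmb8, 0.60 for Psmb9 and 0.19 for Psmb10. The contrast is shown in the 150 bases before the annotated start of Psmb5, with 11 CG dinucleotides, and of Psmb10, with 3, where capitals mark any of the letters searched.
Psmb5, minus strand of chr14:54618023-54618172: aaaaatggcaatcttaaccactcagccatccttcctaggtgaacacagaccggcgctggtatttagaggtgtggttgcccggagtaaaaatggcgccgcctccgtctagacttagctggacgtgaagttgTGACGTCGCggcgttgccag
Psmb10, minus strand of chr8:105938445-105938594: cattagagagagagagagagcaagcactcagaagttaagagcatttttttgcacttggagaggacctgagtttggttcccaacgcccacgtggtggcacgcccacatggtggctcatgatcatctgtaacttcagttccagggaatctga
The contrast rests on 3 immunoproteasome and 2 constitutive windows and was not tested. The windows of Psmb8 and Psmb9 leave out their GENCODE TSS, so their ratios do not describe the sequence at that TSS.

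H3K4me3 was almost universal at the proteasome genes. Marked genes were those with a peak at most 1 kb from a TSS in each of the replicates, and the value of a gene was the number of tags per 10 M in its tallest peak there, averaged over the replicates. Of the 49 members 47 were marked (95.9%), against 59.4% of all autosomal genes. The 2 unmarked members were Psmb11, which encodes the catalytic subunit of the thymoproteasome and is restricted to thymic epithelium, and Psme2b, a paralog of Psme2. The deposited lists hold called peaks only, so absence of a peak does not give a level of 0. The median value of marked members was 261.8 tags per 10 M, with the middle 50% between 226.7 and 319.3, against 220.4 (126.5 to 282.4) over all 12304 marked genes. Members were closer together than marked genes at large, with an SD over genes of 0.46 against 1.34 on the log2 scale. All but 1 of the 47 were above 150 tags per 10 M, against 70.6% of marked genes, as the plot of the spread of values shows.

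**Figure D2:**
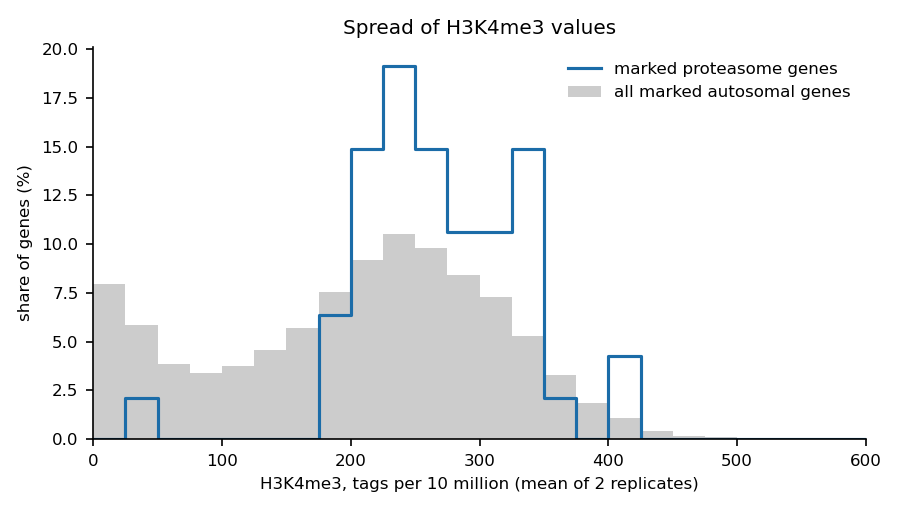
Distribution of H3K4me3 values (tags per 10 M in the tallest peak within 1 kb of a TSS, mean of 2 replicates, x axis) as a share of genes (%, y axis), for 47 marked proteasome genes (blue line) and 12304 marked autosomal genes (grey bars, bins of 25; 1 gene above 600 is not drawn). The proteasome genes lie between 185.6 and 421.2 except Psma8 at 49.9, whereas the grey bars extend to the lowest values.

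Replicates matched closely at these promoters. The ratio of replicate 2 to replicate 1 ranged from 0.782 to 1.33, and 26 of 47 members were higher in replicate 2. No member differed by over 1.5 times between replicates, against 5.77% of all marked genes. The SD of the log2 ratio between replicates was 0.20 over members, 0.31 over all marked genes and 0.20 over marked genes above 150 tags per 10 M. The members' peaks held 62 to 538 tags in replicate 1 and 69 to 580 in replicate 2, and an exact Poisson 95% interval spanned about 10.7% and 10.5% of the value on each side at the median. Such intervals cover counting error only. Input tags in the same peaks were at most 5.5 and 4.2, scaled to the ChIP library.

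Psma7, the alpha4 subunit, and Psmd11, the Rpn6 subunit of the 19S lid, had the tallest peaks. Psmd11 was at 409.8 and 432.6 tags per 10 M in replicates 1 and 2, higher than 99.1% of marked genes. Psma7 was at 419.1 and 414.7, but Ss18l1 starts 76 bp away, so this value cannot be assigned to 1 of them. Psmb4, the structural beta7 subunit, followed with 332.7 and 409.5, and its replicates differed more than its distance from the members next in order. The 150 bases before the most upstream annotated start of Psmd11 are shown as the promoter of the tallest member, and those of Psmd14, the deubiquitinase of the 19S lid, as an example with ETS, NRF1 and SP1 letters together, with capitals as above.
Psmd11, plus strand of chr11:80428465-80428614: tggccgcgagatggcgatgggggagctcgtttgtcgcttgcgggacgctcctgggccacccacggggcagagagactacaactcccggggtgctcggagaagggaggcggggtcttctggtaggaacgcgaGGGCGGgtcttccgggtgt
Psmd14, plus strand of chr2:61711544-61711693: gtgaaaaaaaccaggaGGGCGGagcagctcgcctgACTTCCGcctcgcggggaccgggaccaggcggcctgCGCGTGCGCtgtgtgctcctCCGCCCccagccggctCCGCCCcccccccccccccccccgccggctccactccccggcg

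At the low end stood Psma8, the testis-specific alpha subunit of the spermatoproteasome, with 48.3 and 51.5 tags per 10 M. These values were far below those of every other marked member in both replicates, although the peak was over input by 25.3 and 49.3 times. The next lowest were Psmc4, an ATPase of the 19S base, with 184.6 and 186.5, and Psmb6 with 177.6 and 202.1. These neighbours did not separate, since Psmb6 lay on both sides of Psmc4.

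By role, the 20S alpha genes Psma1 to Psma7 had a median of 319.4 tags per 10 M (199.9 to 416.9) and the structural beta genes Psmb1 to Psmb4 one of 278.9 (256.9 to 371.1). The 6 ATPase genes had a median of 255.8 (185.6 to 332.2) and the 11 non-ATPase genes of the cap one of 303.1 (224.9 to 421.2). The 6 assembly chaperones had a median of 250.6 (214.1 to 276.9). Their order against the ATPase genes turned between replicates, with medians of 223.6 against 280.4 in replicate 1 and 275.6 against 233.8 in replicate 2. The inhibitor gene Psmf1 was at 217.4 and 238.7. All members of these groups were marked, and their ranges overlapped. The ring partners Psma3 (290.6 and 372.2) and Psma5 (212.7 and 187.2) show how far members of 1 group could lie apart. Psmc3ip, which shares the prefix but encodes a factor of meiotic recombination and not a subunit, was at 218.1 and 195.4.

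**Figure D3:**
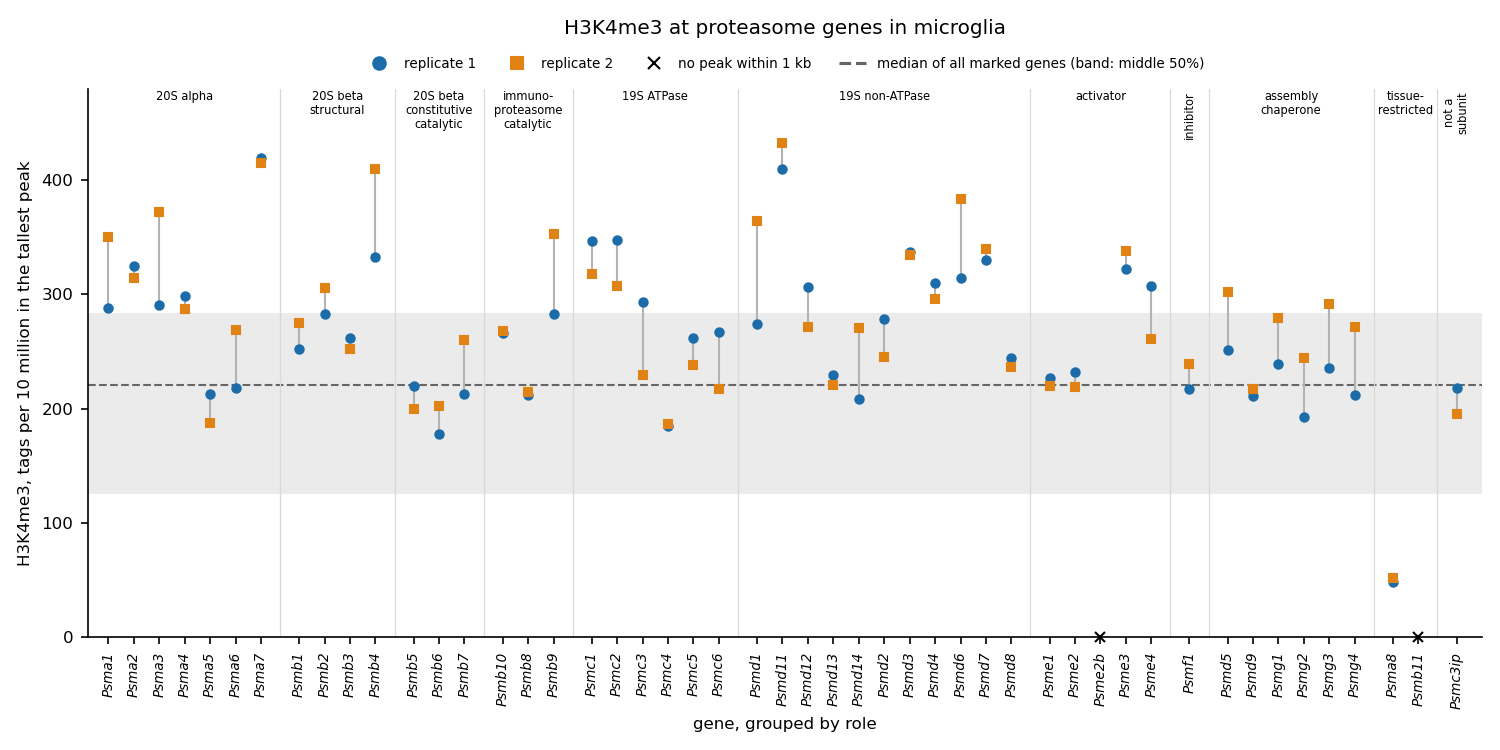
H3K4me3 value (tags per 10 M in the tallest peak within 1 kb of a TSS, y axis) of each of the 49 proteasome genes (x axis, grouped by role) in replicate 1 (circles) and replicate 2 (squares), joined by a line. The dashed line is the median of all marked genes at 220.4, the band their middle 50%, and crosses mark Psme2b and Psmb11, which had no peak.

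H3K4me3 at the immunoproteasome genes of these wild-type microglia was in the range of the constitutive catalytic genes or above it. Psmb8 was at 211.9 and 214.1 tags per 10 M, Psmb9 at 282.8 and 352.8 and Psmb10 at 266.4 and 267.8. The genes they replace were at 219.7 and 199.2 (Psmb5), 177.6 and 202.1 (Psmb6) and 212.7 and 260.3 (Psmb7). Group medians were 267.1 for the immunoproteasome (213.0 to 317.8) and 209.4 for the constitutive genes (189.8 to 236.5), so the ranges overlapped. The constitutive median was the lowest of the 20S and 19S groups.

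Ratios within a library are free of its depth, so each immunoproteasome gene was set against the gene it replaces. Psmb9 exceeded Psmb6 by 0.67 on the log2 scale in replicate 1 and 0.80 in replicate 2 (mean 0.74 ± 0.09 SD, n = 2, or 1.67-fold). Exact 95% binomial intervals of the tag counts were 0.43 to 0.92 and 0.59 to 1.03. Psmb8 and Psmb5, the chymotrypsin-like pair, differed by -0.05 (-0.30 to 0.19) and 0.10 (-0.14 to 0.35), less than the counting error in each replicate. Psmb10 exceeded Psmb7 by 0.32 (0.09 to 0.56) in replicate 1 and by 0.04 (-0.16 to 0.27) in replicate 2, so that its interval lay above 0 in replicate 1 and spanned 0 in replicate 2. The mean over the 3 pairs was 0.31 and 0.32, or 1.24-fold. Without the pair of Psmb9 and Psmb6 it was 0.10, so most of it rested on that pair, in which Psmb6 is among the 3 lowest marked members. The Psmb9 value is also that of Tap1, which starts 38 bp away. With peaks within 500 bp the ratio of Psmb9 to Psmb6 was 0.42. For scale, the SD of the replicate log2 ratio over marked genes above 150 tags per 10 M was 0.20. This is the spread of a difference between 2 libraries, and it may be technical only. With 2 libraries and 3 pairs no test across samples was made.

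The values taken for the interferon-inducible activator genes Psme1 and Psme2 were below that of Psme3. However, the tallest peak of Psme2 lay upstream of the gene, beyond the TSS of Rnf31, so its value cannot be assigned to Psme2. The interferon-inducible PA28 genes Psme1 (226.7 and 220.0) and Psme2 (232.2 and 218.6) were below Psme3 (322.5 and 337.9), which encodes the nuclear PA28gamma. On the log2 scale Psme1 differed from Psme3 by -0.51 (-0.73 to -0.29) and -0.62 (-0.82 to -0.39), and Psme2 from Psme3 by -0.47 (-0.69 to -0.26) and -0.63 (-0.85 to -0.42). Psme4, the PA200 activator, was at 307.0 and 261.1. Over the 5 interferon-inducible genes together the median was 225.4, against 262.6 over the 42 other marked members. The former is the value of the peak taken for Psme2, which cannot be assigned to that gene. Psmb9, whose value is shared with Tap1, and Psmb10 were above the median of the other members. Psmb8, Psme1 and the value taken for Psme2 were below it.

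**Figure D4:**
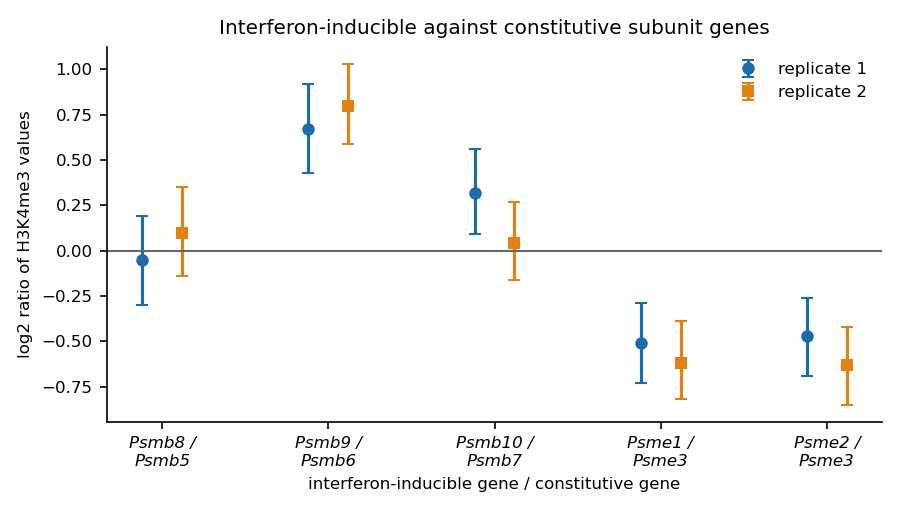
Log2 ratio of the H3K4me3 value (y axis) of each interferon-inducible gene to a constitutive gene (x axis) in replicate 1 (circles) and replicate 2 (squares), with exact 95% binomial intervals of the tag counts. Psmb9 over Psmb6 is above 0 in both replicates, Psme1 and Psme2 over Psme3 are below 0 in both, and Psmb8 over Psmb5 spans 0 in both. The peak used for Psme2 lies upstream of that gene, beyond the TSS of Rnf31.

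Values near a second gene cannot be assigned to 1 of them. A TSS of another protein-coding gene lay within 1 kb for 11 of 49 members (22.4%), against 12.1% of all genes, and for 23.4% of marked members against 18.6% of marked genes. Psmb9 is one of them, with the peptide transporter gene Tap1 starting 38 bp away and the same values (282.8 and 352.8). The others were Psma2 with Mrpl32, Psma4 with AY074887, Psma7 with Ss18l1, Psmb1 with Tbp, Psmc2 with Dnajc2, Psmc5 with Ftsj3, Psmd13 with Sirt3, Psme2 with Rnf31, Psmg2 with Cep76 and Psmg3 with Gm26938, at distances of 32 to 607 bp. For Psme2 the tallest peak was centred upstream, at -796 and -774 bp from its TSS, beyond the TSS of Rnf31. None of Psmb5, Psmb6, Psmb7, Psmb8 and Psmb10 had such a neighbour.

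The tallest peaks mostly lay just inside the gene. They were downstream of the nearest TSS in both replicates for 40 of 47 marked members (85.1%), against 75.2% of marked genes, with median offsets of 178 and 172 bp. The centre fell in an intron in both replicates for 21 members, in a coding exon for 11, in an untranslated exon for 3 and outside the gene for 5, and the position differed between replicates for 7. Peaks of the replicates overlapped for 45 of 47 members, the exceptions being Psma5 and Psmb3. From the GENCODE TSS the immunoproteasome genes had the most distant peaks of the catalytic genes, at 795 and 676 bp for Psmb8, 608 and 607 bp for Psmb9 and 453 and 454 bp for Psmb10, against 223 and 247 bp for Psmb5, 90 and 115 bp for Psmb6 and 321 and 321 bp for Psmb7. Part of this was set by the annotation: the RefSeq start lay 405 bp downstream of the GENCODE TSS for Psmb8, 434 bp for Psmb9 and 52 bp for Psmb10, which left offsets of 390 and 271, 174 and 173, and 401 and 402 bp. From the RefSeq start the offsets were 210 and 234 bp for Psmb5 and 119 and 144 bp for Psmb6, so on this scale the peak of Psmb9 lay nearer its start than that of Psmb5. The Psmb9 peak of replicate 1, chr17:34187064-34187248, was intronic, as was that of Psmb5 at chr14:54617693-54617877. The Psmb10 peak, chr8:105937899-105938083, was centred in a coding exon.

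PLAC-seq interactions were called for 20 of the 49 members (40.8%), against 24.7% of all autosomal genes. PLAC-seq enriches contacts of H3K4me3-bearing DNA, so the closer comparison is 20 of 47 marked members (42.6%) against 37.8% of marked genes, a share near the background. The members took part in 100 distinct interactions, or 2.04 per member against 0.853 per gene, and 2.13 against 1.35 among marked genes. The excess in the mean rested on few members, since 3 genes held 50 interactions and Psma1 alone 29. Without Psma1 the mean was 1.48 over the 48 other members, and 1.54 over the 46 of them that were marked. Marked members with an interaction had a median H3K4me3 value of 261.8 (189.8 to 416.9) and those without one a median of 263.4 (49.9 to 421.2). Absence from the list is no evidence that 2 bins do not touch, and the merged list gives no replicate error.

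Psma1, the alpha6 subunit with H3K4me3 of 288.3 and 350.6 tags per 10 M, had all of its 29 partner bins upstream, 35 to 245 kb away, and 28 of them belonged to 1 deposited cluster of 53 interactions. The most read pairs joined its TSS bin to that of Pde3b, a phosphodiesterase gene, 140 kb away, with 119 pairs where 13.4 were expected (8.86 times, exact Poisson 95% interval 7.34 to 10.6, deposited FDR 1.21e-65). The Pde3b bin carried H3K4me3 of 287.5 and 355.1 tags per 10 M, and 20 of the partner bins lay in the body of that gene. Psmd12, the Rpn5 subunit of the lid (306.2 and 271.5), had 10 partners 195 to 280 kb upstream, all in 1 deposited cluster of 52 interactions. Of these partners 8 lay in Pitpnc1 and none held a peak in both replicates or a TSS. Together they had 6.52 times the expected pairs. The assembly chaperone gene Psmg4 (211.9 and 271.5) had 11 partners, 10 of them upstream across Tubb2a, Bphl and Ripk1 and 1 at 700 kb downstream, the longest contact of any member. The 10 upstream partners were in 1 cluster of 38 interactions.

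Of the catalytic genes, the 3 immunoproteasome genes had 10 interactions and Psmb6 and Psmb7 had 7, whereas none was called for Psmb5. These counts tally bins, and neighbouring bins of 1 cluster need not be separate contacts. Psmb10 contacted 7 bins 215 to 245 kb downstream, all in 1 deposited cluster of 21 interactions. Some of these bins held the TSSs of Pard6a, Acd, Enkd1 and 4933405L10Rik. The bin with the highest ratio held no TSS and had 28 pairs where 3.94 were expected (7.11 times, 4.72 to 10.3). Psmb8 and Psmb9 lie together in the MHC class II region. Psmb8 contacted a bin 15 kb away in the body of Psmb9 with 37 pairs (3.09 times, 2.18 to 4.27) and another at 115 kb with 13 pairs (3.83 times, 2.04 to 6.55). The bin shared by Psmb9 and Tap1 contacted that of H2-Oa, an MHC class II gene, at 95 kb with 17 pairs (2.90 times, 1.69 to 4.65), and H2-Oa carried 53.8 and 41.0 tags per 10 M. Psmb6 had 6 partners 65 to 230 kb downstream, at most 4.03 times expected, and 5 of them were in 1 cluster of 18 interactions. Psmb7 had 1 partner at 215 kb (4.64 times, 2.40 to 8.11). None of the 5 activator genes, nor Psmf1, had a called interaction, where 37.8% of marked genes and 24.7% of all genes had one. Psme2b, 1 of these activator genes, was unmarked.

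The other members with interactions had fewer partners. Psma6, the alpha1 subunit (218.1 and 268.5 tags per 10 M), contacted the TSS bin of Nfkbia, which encodes the NF-kappaB inhibitor that the proteasome degrades, with 32 pairs at 95 kb (3.92 times, 2.68 to 5.54), and that bin had H3K4me3 values of 349.8 in both replicates. Psmc1 (346.7 and 317.8) contacted Kcnk13, a potassium channel gene of microglia, at 150 kb (4.32 times, 2.56 to 6.83). Psmc3 (293.7 and 229.7) contacted a bin in the body of Nr1h3, the gene of the nuclear receptor LXRalpha, at 135 kb (3.37 times, 1.84 to 5.65). Psma7, in a bin shared with Ss18l1, had 6 partners in the body of Taf4, up to 6.51 times expected. Psmg2 (192.4 and 243.9), with 4 interactions in a bin shared with Cep76, reached Prelid3a, and Psmg3 (235.3 and 291.7), with 3 in a bin shared with Gm26938, reached Mad1l1 at 495 kb. Psma3 and Psmb3 (261.8 and 252.1) had 3 interactions each, in the bodies of Arid4a and mainly of Pip4k2b, and Psmb3 shared its bin with Pcgf2. Psmc3ip had 3, with Plekhh3, Cntnap1 and Ccr10, and Psmd8 (244.6 and 236.5) had 2, with Catsperg1 and Yif1b. Psmd2 (278.1 and 245.4) contacted Eif2b5 and Psmd7 (330.3 and 340.1) contacted Wwp2, with 1 interaction each.

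Partner bins were like those of marked genes in general. They carried H3K4me3 in both replicates in 21% of cases, against 21.1% for all marked genes, and held a TSS in 18% against 16%. The median distance was 140 kb against 125 kb, and the median ratio to expected was 4.23 against 3.91. Of the 100 interactions 67 pointed upstream of the gene and 33 downstream, as the plot of interactions by distance shows. Without Psma1 the numbers were 38 and 33 (53.5% upstream), against 49.6% upstream over all marked genes.

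**Figure D5:**
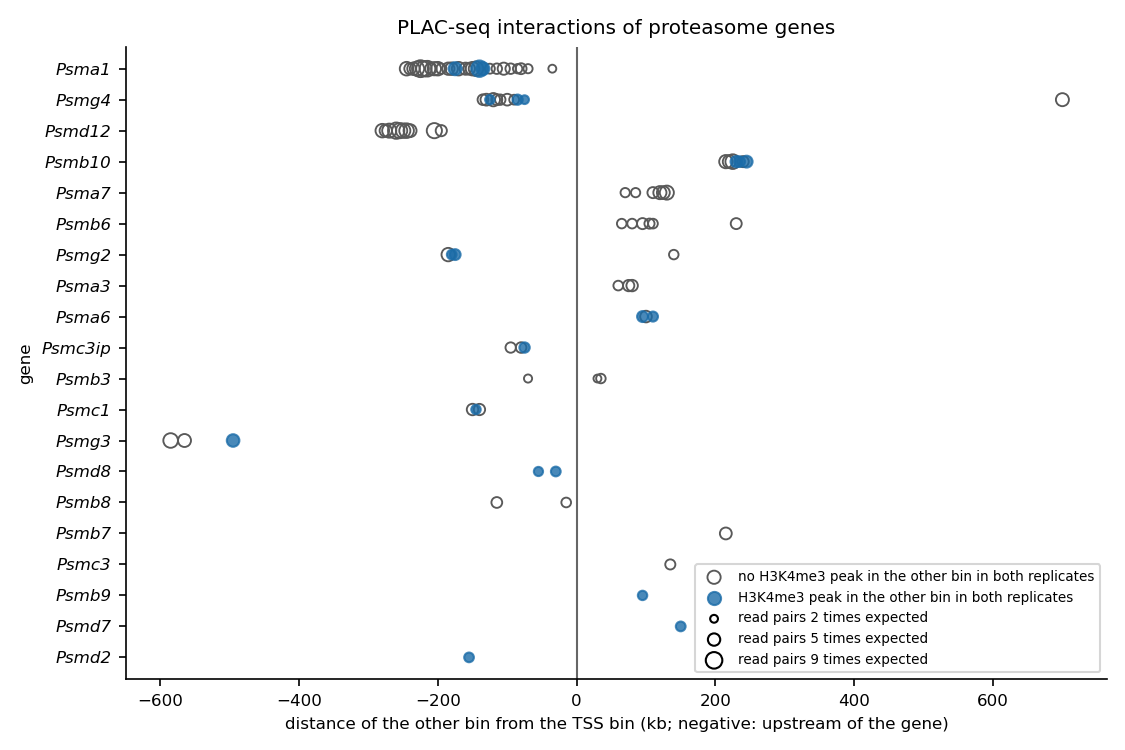
Each point is 1 of the 100 interactions of 20 proteasome genes (y axis, ordered by number), placed by the distance of the other bin from the TSS bin (kb, x axis; negative is upstream of the gene) and sized by read pairs over expected. Filled points mark the 21 other bins with an H3K4me3 peak in both replicates, and the dense row of Psma1 between 35 and 245 kb upstream holds 29 of the points.

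Genes of the pathway whose symbols lack the prefix were also mostly marked. Of 32 listed genes 31 were matched, Paaf1 being the exception, and 30 carried H3K4me3 (96.8%, against 59.4% of all genes), with a median of 302.8 tags per 10 M (104.7 to 385.9), above the 261.8 of the members. The 7 matched 19S subunits and associated factors were at 222.3 to 324.6. The assembly factor Pomp (331.1 and 381.9) was higher than every assembly chaperone among the members, and Akirin2 was at 296.8 and 352.1. The transcription factors of proteasome genes Nfe2l1 (304.6 and 237.2) and Nfe2l2 (364.6 and 392.4) were marked, and Nfe2l2 had 10 interactions. Of the peptide loading genes Tap2 lacked a peak within 1 kb in both replicates, and Tapbp was at 254.0 and 243.2. Among interferon regulators Irf1 was at 323.3 and 329.7, whereas Nlrc5, the transactivator of MHC class I genes, had 84.1 and 125.3. In all 13 of the 31 had an interaction (41.9%, against 24.7% of all genes), and among marked genes 12 of 30 (40%, against 37.8%), a share near the background.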

How the data were processed

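Data of wild-type microglia were used from 2 ChIP-seq, 2 input and 2 PLAC-seq libraries. Whether replicates are separate animals is not given in the labels, so their spread may be technical. The authors deposited 1 peak list per ChIP library on mm10, in HOMER's format. The submitters' processing notes name Bowtie2 and HOMER. In these deposited lists the signal is given as tags per 10 M mapped tags, the deposited tag count is a whole number, and the authors' fold over input is a ratio. Peaks have a fixed width of 184 or 188 bp, so the value of a wide domain is that of its tallest window. For PLAC-seq the authors called interactions with MAPS (1.1.0 in the study's methods) and deposited the read pair count, the expected count and a false discovery rate, which is an adjusted p-value. The depth of PLAC-seq is unknown. The study's methods name the ENCODE pipeline (2.0.0) for the peaks that guided calling, and these may differ from the deposited lists.

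TSSs of protein-coding transcripts came from the GENCODE M21 basic annotation. Python 3.11.15, pandas 2.3.3 and scipy 1.17.1 were used, and the assignment of peaks and interactions to genes was tested on simulated data. An interaction belonged to a gene when a TSS lay in an anchor bin, so genes in 1 bin share it. Named were the catalytic, activator and tissue-restricted genes, every member without a peak, with an interaction or with a neighbouring TSS, the 3 highest and 3 lowest, and others by role. Further genes named as examples (Psma3, Psma5, Psmd14 and those of the pathway list) were picked after their values were seen. The values of 1 gene of the pathway list are not reported here. Members and lists were chosen with earlier results of these data known. No test across samples was made, because the design holds 1 condition. Alternatives were the window, 1 TSS per gene, stricter peaks and interactions, summed peaks and leaving out each replicate.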

Additional observations from a re-analysis of the deposited data

Results flagged for a closer look

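Psmd10, which encodes the 19S assembly chaperone gankyrin, lies on chromosome X and so falls outside the autosomal rule. It carried an H3K4me3 peak within 1 kb of its TSS with 123.9 tags per 10 M in replicate 1 and 122.3 in replicate 2, at 520 and 79.6 times the input. It is given here because its data are not part of the comparisons above. Each value is lower than that of any autosomal member with a peak other than Psma8. The study's methods used males, so copy number differs between this X-linked gene and autosomal members, and values were not adjusted for it.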

How the results depend on the processing

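The number of members with H3K4me3 in both replicates stayed between 46 and 47 under 6 alternatives, and the exception at 500 bp was Psmb8, whose peak lay farther away. Summing all peaks within 1 kb raised the median of marked members to 319.1 tags per 10 M (247.2 over all marked genes). Leaving out 1 replicate gave medians of 261.8 to 270.8, and other alternatives 261.7 to 261.8. The mean log2 ratio of the catalytic pairs was 0.56 with summed peaks, 0.10 without the pair of Psmb9 and Psmb6 (chosen after seeing the data) and 0.31 to 0.32 when a replicate was left out. At 500 bp it could not be formed without Psmb8. Psmb9 over Psmb6 was 0.42 at 500 bp and 1.48 with summed peaks. The number of members with an interaction fell with stricter lists, for which shares among marked genes were not computed. At an FDR of at most 0.0001 it was 15 of 49, against 15.8% of all genes. With at least 20 read pairs it was 12 of 49, against 14.9% of all genes. Against 15.7% of all genes, 8 of the 49 members had one with summits and single interactions only, a share near the background. The number of their interactions was 193 with the bin on each side of the TSS bin included, 54 at an FDR of at most 0.0001, 43 with at least 20 read pairs, 8 with summits and single interactions only, and 71 without Psma1 (chosen after seeing the data). With the bin on each side 20 members had an interaction, against 31.4% of all genes. The causes of these changes were not tested. No paired analysis was possible because no groups were compared.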
